A study of Mus musculus with 4 samples.

Results

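Iron export, uptake and storage were followed through 9 genes of the mouse heart. They were *Slc40a1*, *Hmox1*, *Tfrc*, *Slc11a2*, *Hfe*, *Fth1*, *Ftl1*, *Ireb2* and *Aco1*. They were picked by gene symbol out of 55401 genes in the deposited table, and all 9 symbols matched exactly 1 gene each. The genotype difference in these same libraries, that of *Slc40a1* in particular, was already known when the group was put together, so the genotype values of the 9 genes are a description and carry no test of their own. Hearts of 4 mice aged 8 weeks had been sequenced, each as 1 library, from 2 *Ctcf* heterozygous and 2 wild-type animals. The heterozygous C57BL/6N mice carry the CTCF-R567W substitution, introduced into the germline with CRISPR/Cas9, on one *Ctcf* allele, and CTCF is a zinc finger protein that organises chromatin loops. No treatment is named for either genotype. The tissue is heart as a bulk sample, in which fewer cells of a type and less RNA per cell cannot be told apart. Within each genotype, values are given below for replicate 1 and then replicate 2.

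Iron enters a heart cell mainly as transferrin-bound iron through the transferrin receptor, is moved across membranes by a divalent metal transporter, is stored inside ferritin shells built from heavy and light subunits, and leaves only through ferroportin, the product of *Slc40a1*. The hormone hepcidin binds ferroportin and removes it from the cell surface. Iron regulatory proteins, encoded by *Aco1* and *Ireb2*, bind a short RNA hairpin, the iron-responsive element, when iron is scarce. Bound before the coding sequence, they hold back translation. Bound after it, they protect the mRNA from decay.

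The hairpins are shown because they are the feature that ties export, uptake and storage to the same regulators. Transcripts of the GENCODE annotation on mm10 were searched on the transcribed strand for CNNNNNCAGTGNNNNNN, in which the last 5 letters had to pair with the 5 before CAGTGN (G with T allowed). Of 21877 protein-coding genes, 160 (0.731%) held such letters in an untranslated region, and 4 of the 9 iron genes were among them. *Slc40a1*, *Fth1* and *Ftl1* held 1 each in the 5′ untranslated part of exon 1, and *Tfrc* held 4 in the 3′ untranslated part of exon 19. Each line below gives the 29 bases around a match, 5′ to 3′, with the 6-base loop in capitals.
Slc40a1: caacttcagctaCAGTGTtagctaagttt
Fth1: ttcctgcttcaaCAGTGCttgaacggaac
Ftl1: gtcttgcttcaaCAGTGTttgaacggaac
Tfrc 1: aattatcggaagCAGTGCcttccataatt
Tfrc 2: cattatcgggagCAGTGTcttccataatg
Tfrc 3: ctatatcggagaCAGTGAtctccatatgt
Tfrc 4: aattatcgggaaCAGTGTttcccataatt
They lie at chr1:45925465-45925493 (minus strand), chr19:9982732-9982760 (plus), chr7:45459779-45459807 (minus), and, for *Tfrc* on the plus strand, chr16:32631219-32631247, chr16:32631598-32631626, chr16:32631663-32631691 and chr16:32631710-32631738. The ferritin elements shared 26 of 29 letters with each other, and each shared 13 of 29 with that of *Slc40a1*. For *Slc11a2*, *Hmox1*, *Ireb2*, *Aco1* and *Hfe* these letters were not found in an untranslated region, which says nothing more than that.

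The table gave relative abundances per gene length (transcript shares, TPM), which sum to the same total in every library and keep no read depth. Genes of the mitochondrial genome and their nuclear copies together left 21.2% and 24.0% of that total to all other genes in wild-type hearts and 14.2% and 17.6% in heterozygous hearts. As deposited, almost every other gene stood lower in the heterozygous hearts, at a median log2 fold change of -0.35 over 10036 genes. All 9 iron genes had both heterozygous values under both wild-type values on that scale, where the same held for 67.8% of tested genes and for 55.8% of the genes above 0 in every library. To put the libraries on one footing, TPM were divided by median-of-ratios factors (1.09 and 1.26 for wild type, 0.818 and 0.903 for heterozygous), and these scaled TPM are used from here on unless stated. Fold changes and standard errors come from limma on log2(scaled TPM + 1), fitted over the 10036 genes whose TPM averaged 1 or more. Each standard error is moderated, meaning that it draws on the spread of all fitted genes as well as on that of the gene itself. In this scaling the middle gene of all those tested stood at -0.00471.

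**Figure D1:**
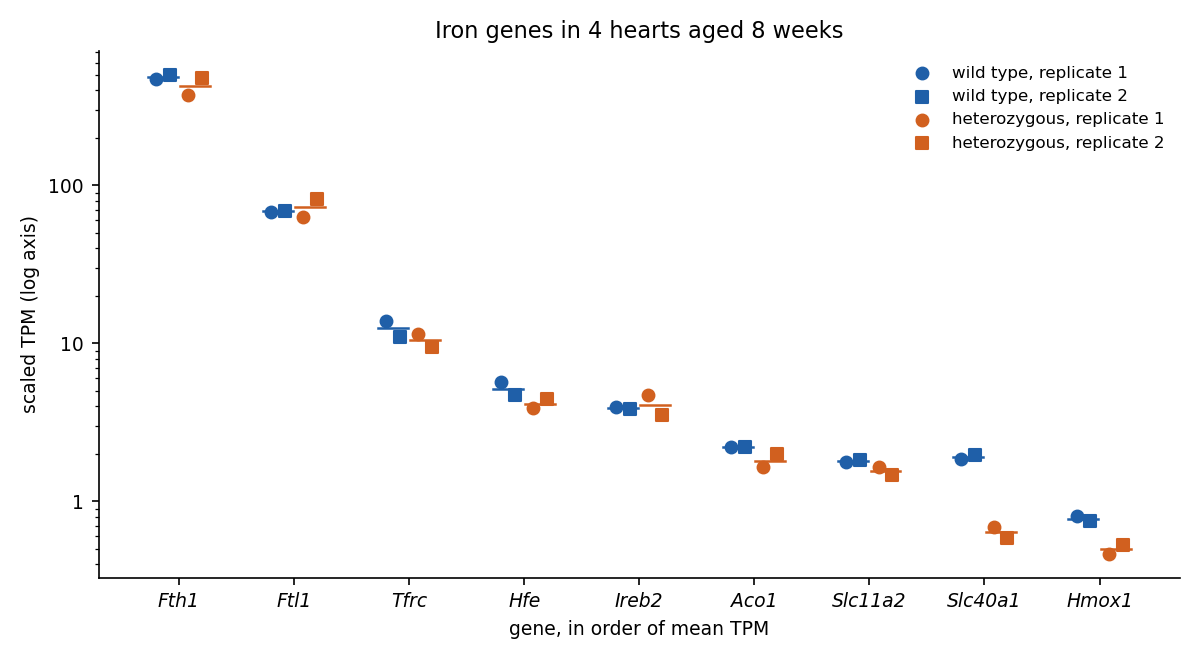
Scaled TPM (log axis) of the 9 iron genes, in order of mean TPM, in 2 wild-type hearts (blue) and 2 *Ctcf* heterozygous hearts (orange); circles are replicate 1, squares replicate 2 and bars the genotype means. *Slc40a1* shows the widest gap between genotypes, from 1.87 and 1.95 to 0.685 and 0.587.

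Ferritin heavy chain mRNA was the most abundant of the group and heme oxygenase the least. On deposited TPM, per gene length, *Fth1* ran from 303.7 to 633.2 over the 4 hearts, *Ftl1* from 51.7 to 86.6 and *Tfrc* from 8.55 to 15.2, with no overlap between these neighbours in the order. *Hfe* (3.18 to 6.17) and *Ireb2* (3.16 to 4.86) overlapped. *Aco1* (1.34 to 2.77), *Slc11a2* (1.32 to 2.30) and *Slc40a1* (0.53 to 2.46) also overlapped with one another. *Hmox1* came last at 0.38 to 0.94 TPM, below *Slc40a1* within each of the 4 hearts. Storage transcripts thus exceeded those of import and export in every heart.

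Calls needed a fold over 1.5 and an adjusted p under 0.05 in the limma fit over all genes. Of the 8 tested iron genes 0 were called and 1 had an unadjusted p under 0.05, counts given as a description only. Of all tested genes 0.0199% were called, every one of them lower, and 12.2% had an unadjusted p under 0.05. With TPM as deposited 0 of the 8 were called too, where 0.11% of tested genes were called lower. The genotype contrast is the one on which the group was known, so nothing is read from these shares. With 2 hearts against 2, an exact two-sided permutation test of a single gene cannot give a p under 0.333. Below a mean TPM of 1, *Hmox1* was not tested. *Slc40a1* passed that minimum only because of its wild-type hearts, since both heterozygous values lay under 1. After scaling, 5 of the 9 genes had both heterozygous values under both wild-type values (*Slc40a1*, *Hmox1*, *Hfe*, *Aco1* and *Slc11a2*), 4 overlapped, and 0 lay above. Without the untested *Hmox1* it was 4 of the 8 tested iron genes. Of all tested genes, 23.3% were separated in the lower direction and 23.7% in the higher. The log2 fold change was below 0 for 6 of the 8 tested iron genes, with a median of -0.20, and for 50.7% of all tested genes. As deposited it was below 0 for all 8, and for 90.6% of tested genes.

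*Slc40a1* encodes ferroportin, the iron exporter of the plasma membrane (ENSMUSG00000025993.10, chromosome 1, 45908068 to 45926523, minus strand). Deposited TPM were 2.03 and 2.46 in wild-type hearts and 0.56 and 0.53 in heterozygous hearts. Both heterozygous hearts lay far under both wild-type hearts, and hearts of one genotype lay close to each other. In scaled TPM the means were 1.91 ± 0.0612 and 0.636 ± 0.0695 (SD, n = 2 each), which is 3.00-fold lower in heterozygous hearts; with TPM as deposited the ratio was 4.12. The log2 fold change with 1 added was -0.83 (standard error 0.14), a scale that understates the change of a gene at this level, and it was -1.45 with 0.1 added. Of the 10036 tested genes, 82 had a lower log2 fold change. These values rest on less than 3 TPM at unknown depth and are rounded to 2 decimals. *Hmox1*, the inducible heme oxygenase that frees iron from haem (ENSMUSG00000005413.8, chromosome 8, 75093621 to 75100589, plus strand), had scaled TPM of 0.809 and 0.746 in wild type against 0.465 and 0.531. The genotypes did not overlap, and the means differed 1.56-fold, but every value was under 1 TPM.

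Among the uptake genes the genotypes lay closer together. *Tfrc*, the transferrin receptor (chromosome 16, 32608920 to 32632794, plus strand), had 13.9 and 11.0 scaled TPM in wild type, against 11.5 and 9.47 in heterozygotes. The ranges overlapped, and the log2 fold change of -0.23 (standard error 0.18) was close to its error. *Slc11a2*, the divalent metal transporter DMT1 (chromosome 15, 100387898 to 100425072, minus strand), had 1.78 and 1.83 against 1.64 and 1.46, a log2 fold change of -0.14 (standard error 0.13). Its genotypes were separate but within about 1 moderated standard error of no difference. *Hfe*, which encodes the haemochromatosis protein that binds the transferrin receptor (chromosome 13, 23702034 to 23710854, minus strand), had 5.67 and 4.68 against 3.89 and 4.42. Both heterozygous hearts lay lower, with a log2 fold change of -0.26 (standard error 0.15).

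Ferritin transcripts showed no separation by genotype after scaling. *Fth1*, the heavy subunit with ferroxidase activity (chromosome 19, 9980598 to 9985098, plus strand), had scaled TPM of 469.9 and 502.6 in wild type against 371.5 and 480.8. Only the first heterozygous heart lay below the wild-type range, and the second fell inside it. The log2 fold change was -0.20 (standard error 0.21). *Ftl1*, the light subunit (chromosome 7, 45457944 to 45459884, minus strand), had 68.1 and 68.8 against 63.2 and 81.9, a log2 fold change of 0.07 (standard error 0.19). Here the heterozygous hearts fell on either side of the wild-type hearts. Both subunits added gave 538.0 and 571.3 against 434.7 and 562.7, so the spread between the heterozygous hearts (SD 90.5) exceeded the difference of the means. Processed pseudogenes of at least 95% identity to *Ftl1* were listed at 0.39 TPM or less each, and none of that identity was found for *Fth1*.

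Neither regulator that reads the hairpins differed at the transcript level by more than 1.5 moderated standard errors. *Aco1*, which encodes iron regulatory protein 1, a cytosolic aconitase when it holds an iron-sulfur cluster (chromosome 4, 40143081 to 40198338, plus strand), had scaled TPM of 2.21 and 2.20 against 1.64 and 1.98. The wild-type hearts were nearly equal and both heterozygous hearts lay lower, with a log2 fold change of -0.19 (standard error 0.14). *Ireb2*, which encodes iron regulatory protein 2, a protein degraded when iron is plentiful (chromosome 9, 54863789 to 54912530, plus strand), had 3.94 and 3.86 against 4.70 and 3.50. The heterozygous hearts fell on either side, with a log2 fold change of 0.05 (standard error 0.16).

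**Figure D2:**
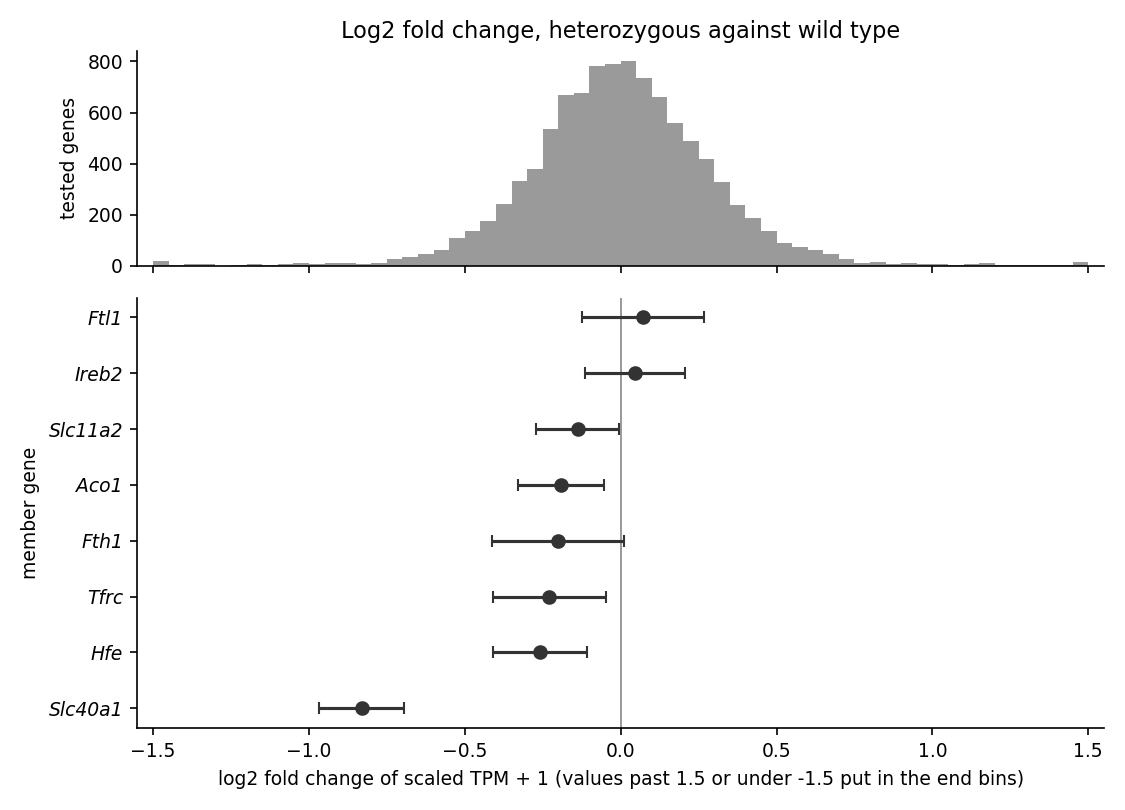
Upper panel, number of tested genes (10036) by log2 fold change of scaled TPM + 1, heterozygous against wild type; lower panel, the 8 tested iron genes with the standard error from limma as bars. *Slc40a1* lies at -0.83, and the other 7 lie between -0.26 and 0.07.

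Ratios of genes within a library do not depend on the scaling factor. The ratio of *Slc40a1* to each of the other 8 iron genes was lower in both heterozygous hearts than in both wild-type hearts, by 1.91-fold (*Hmox1*) to 3.12-fold (*Ireb2*). Set against *Tfrc*, which brings iron in, *Slc40a1* stood at 0.134 and 0.177 in wild-type hearts and at 0.0598 and 0.0620 in heterozygous hearts. Set against *Slc11a2*, it stood at 1.05 and 1.07 in wild-type hearts, about equal levels per length, and at 0.418 and 0.402 in heterozygous hearts. All of these ratios share the *Slc40a1* values and so are not independent of each other. The lower *Slc40a1* values were known when the group was put together. The lower ratios largely restate them, and nothing is read from their number. The ratio of heavy to light ferritin chain transcripts was separate, 6.90 and 7.31 in wild-type hearts against 5.88 and 5.87 in heterozygous hearts. Of single tested genes, 23.3% were separate in the lower direction and 23.7% in the higher. The share among ratios of other gene pairs was not computed, so nothing is read from this separation. The means, 7.11 ± 0.287 and 5.88 ± 0.00315 (SD, n = 2), differed 1.21-fold. The ratio of *Ireb2* to *Aco1* overlapped, at 1.79 and 1.75 against 2.87 and 1.77, and so did that of summed ferritin to *Tfrc*, at 38.6 and 51.9 against 37.9 and 59.4.

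**Figure D3:**
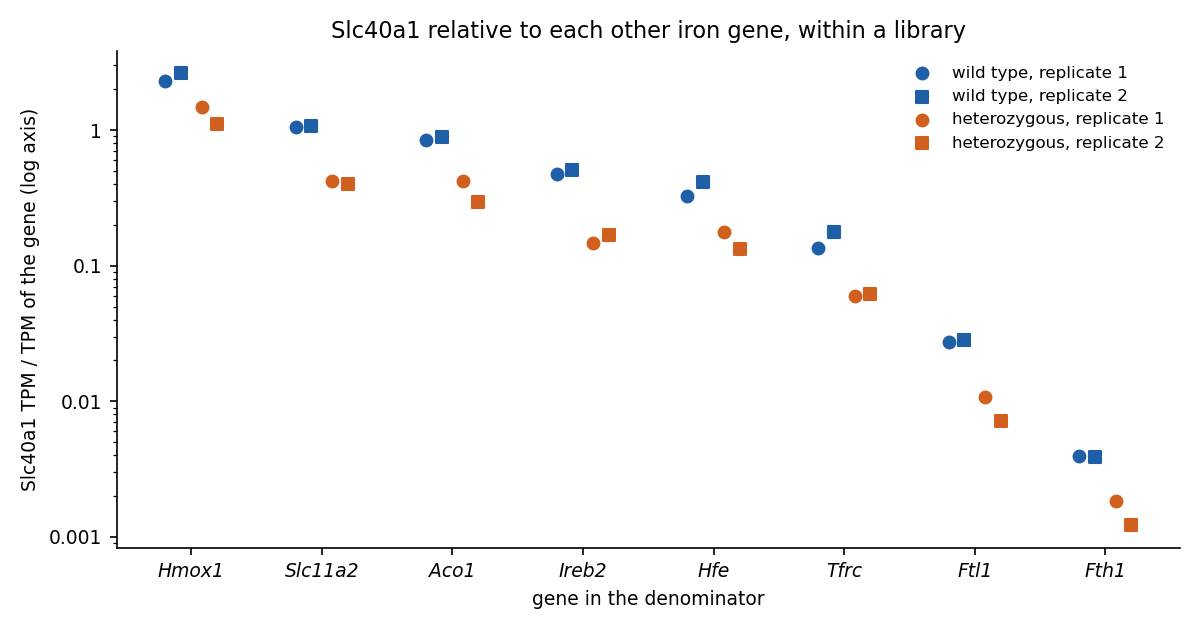
Ratio of *Slc40a1* TPM to the TPM of each other iron gene within the same library (log axis), wild type in blue and heterozygous in orange, circles for replicate 1 and squares for replicate 2. Both heterozygous points lie under both wild-type points for all 8 genes, which largely restates the lower *Slc40a1* values known beforehand.

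Values are set side by side here by the position of the hairpin, as a description. Of the 3 genes with a match in the 5′ untranslated region, *Slc40a1* stood at a log2 fold change of -0.83, *Fth1* at -0.20 and *Ftl1* at 0.07. *Tfrc*, with 4 matches in the 3′ untranslated region, stood at -0.23. Over all other genes holding the letters in an untranslated region, 88 of 156 were tested, 0 were called by limma, and the median log2 fold change was -0.00841. An unadjusted p under 0.05 was reached by 5 lower and 3 higher ones of the 88, where 5.71% and 6.49% of all tested genes reached it. A match describes letters and does not mark a working element.

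Beyond these 9 genes, 81 further genes of iron handling were grouped by role, of which 61 averaged 1 TPM or more. None was called by limma in either direction, where 0.0199% of all tested genes were called lower and 0% higher; 4 had an unadjusted p under 0.05 in the lower and 1 in the higher direction, where those shares were 5.71% and 6.49% of all tested genes. Their log2 fold changes were below 0 for 39 and above 0 for 22, with a median of -0.11, where 50.7% of all tested genes were below 0. With TPM as deposited they were below 0 for 59 of the 61, so that genes given here as above 0, other than *Hamp* and *Abcg2*, changed sign with the scaling. In the role of export partners and haem transport 4 of 10 genes were tested, with a median log2 fold change of 0.03. Of its members, *Cp*, the plasma ferroxidase ceruloplasmin that works beside ferroportin, stood at 4.78 and 5.84 scaled TPM against 3.80 and 4.26, a log2 fold change of -0.32 (adjusted p = 0.431 from limma). *Abcg2*, a haem and drug exporter, stood at 4.95 and 5.51 against 8.11 and 6.25, a log2 fold change of 0.39 (adjusted p = 0.412). *Flvcr1*, a second haem exporter, had a log2 fold change of 0.29 and *Slc48a1*, which carries haem out of lysosomes, one of -0.23. *Heph*, the membrane-bound ferroxidase hephaestin, stayed under 1 TPM in all 4 hearts.

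In the uptake role 9 of 14 genes were tested and 8 had a log2 fold change below 0 (median -0.12), where 50.7% of all tested genes did. Some of the 8 were close to 0, such as *Steap3* (-0.03) and *Mcoln1* (-0.05). By genotype 2 of the 9 were separate lower and 0 higher, where those shares were 23.3% and 23.7% of all tested genes. *Slc39a14*, a carrier of iron not bound to transferrin, had 7.42 and 6.49 scaled TPM against 5.20 and 3.84, separate by genotype, with a log2 fold change of -0.54 (adjusted p = 0.346). Transferrin, *Trf*, overlapped at 14.7 and 11.0 against 7.42 and 11.7, with a log2 fold change of -0.41 (adjusted p = 0.508). At the other end, *Lrp1*, an endocytic receptor that takes up haem bound to haemopexin, had a log2 fold change of 0.16 and *Steap4*, a metalloreductase, one of -0.01. In storage and iron regulatory protein control, 5 of 6 genes were tested (median -0.13). *Pcbp1* and *Pcbp2*, chaperones that hand iron to ferritin, had log2 fold changes of -0.28 and 0.38 (adjusted p = 0.465 and 0.425), each with separate genotypes. *Ncoa4*, the receptor that sends ferritin to lysosomes, stood at 3.80 and 3.68 against 3.38 and 2.85, a log2 fold change of -0.21 (adjusted p = 0.548). *Fbxl5*, part of the ligase that removes iron regulatory protein 2, stood at 3.76 and 4.64 against 5.33 and 5.46, a log2 fold change of 0.30 (adjusted p = 0.444).

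The 20 tested genes of mitochondrial iron and iron-sulfur cluster assembly, of 22 listed, had a median log2 fold change of -0.12, with 13 below 0, where 50.7% of all tested genes were below 0. Of the 20, 3 lower and 0 higher ones had an unadjusted p under 0.05, where 5.71% and 6.49% of all tested genes had one. *Fdx1*, a ferredoxin that passes electrons in the mitochondrial matrix, stood at 10.4 and 11.8 scaled TPM against 6.76 and 8.42, a log2 fold change of -0.50 (adjusted p = 0.355). *Ciao1*, a factor of cytosolic cluster delivery, stood at 5.69 and 5.23 against 3.27 and 4.10, a log2 fold change of -0.47 (adjusted p = 0.346). The mitochondrial iron importer *Slc25a28* had a log2 fold change of 0.25 and the cytosolic scaffold gene *Nubp1* one of 0.19. All 12 genes of haem synthesis and breakdown were tested, with a median of 0.01 and equal numbers above and below 0. The largest differences were those of *Ppox* (0.41, adjusted p = 0.382) and *Uros* (0.28) upwards and of *Urod* (-0.20) and *Alas1* (-0.19) downwards, all enzymes of the pathway to haem. Of the 7 transcription regulators, 6 were tested, with log2 fold changes from -0.25 (*Mafg*) and -0.23 (*Hif1a*) to 0.05 (*Keap1*) and 0.09 (*Nfe2l2*). *Bach1*, a repressor of *Hmox1* and *Slc40a1*, stood at -0.05.

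**Figure D4:**
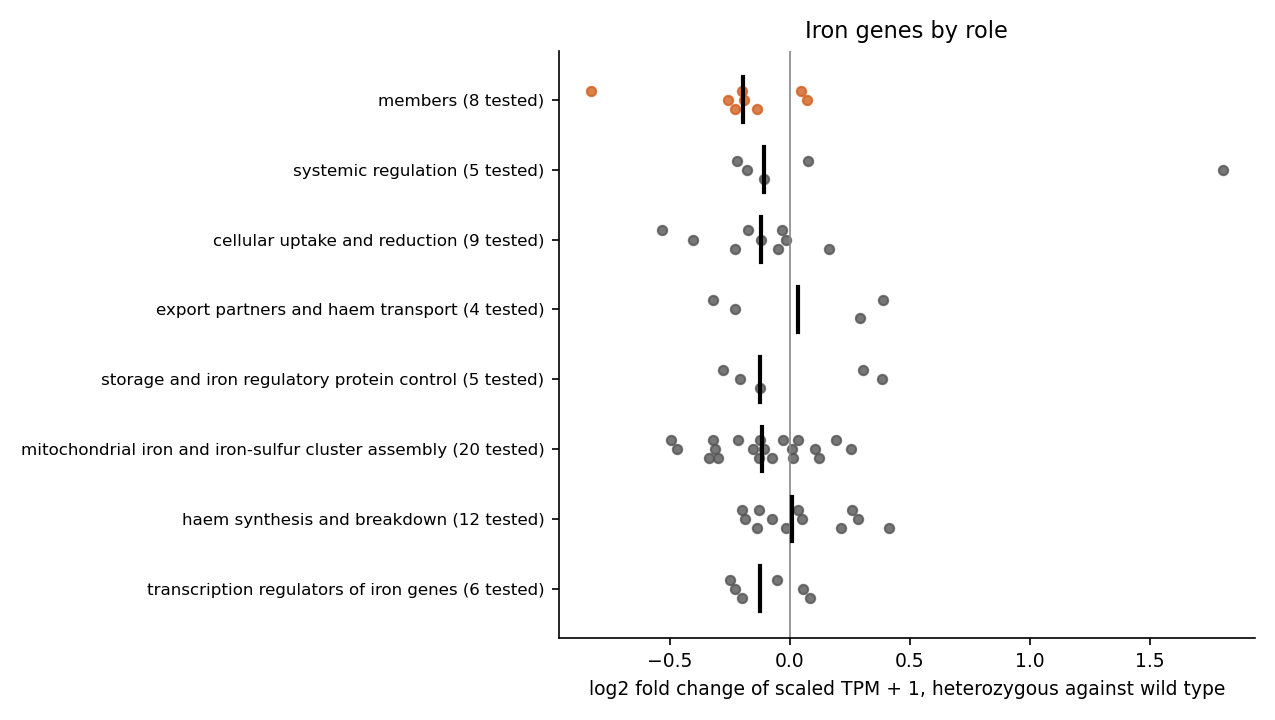
Log2 fold change of scaled TPM + 1, heterozygous against wild type, for each tested gene of the 9-gene group (members, orange) and of 7 role lists (grey), with the median of each as a vertical bar. The list medians lie between -0.20 and 0.03, and the single point far to the right is *Hamp* at 1.81.

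Systemic regulators were mostly low or absent in the heart, and 5 of 10 were tested. *Hamp*, which encodes hepcidin, the ligand of ferroportin, had the largest difference among all 61 genes and the largest spread within a genotype. Deposited TPM were 0.96 and 25.3 in wild-type hearts and 7.71 and 41.1 in heterozygous hearts. The genotypes overlapped, and replicates of one genotype differed more than the genotypes did, so that the log2 fold change of 1.81 (adjusted p = 0.524 from limma, with a standard error of 1.13) was not larger than the spread between hearts. *Hjv*, a coreceptor that raises hepcidin in liver and is also made in striated muscle, had 56.0 and 47.3 scaled TPM against 38.2 and 53.8, a log2 fold change of -0.18. *Bmp6*, the iron-sensing ligand, had a log2 fold change of -0.22 and *Neo1* one of 0.08.

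Of the neighbours of *Slc40a1* none was called, lower or higher. Within 500 kb of the gene the table listed 23 others, mostly predicted genes and pseudogenes, and 2 were tested, with 0 at an unadjusted p under 0.05. Of all tested genes 0.0199% were called and 12.2% had such a p, so counts of 0 among 2 genes say nothing about the region. *Wdr75*, a ribosome biogenesis gene 131.4 kb away by start site on the side of lower coordinates, had a log2 fold change of 0.10 (adjusted p = 0.850 from limma). *Col5a2*, a fibrillar collagen gene 423.2 kb away on the same side, had one of -0.32 (adjusted p = 0.425 from limma). Its genotypes were separate, as in 23.3% of all tested genes in the lower direction. Genes were ranked by root-mean-square distance to *Slc40a1* between centred log2 profiles over the 4 hearts. The nearest tested genes were *Serpinb6b* (0.0378), *Retreg1* (0.0456), *Cacnb2* (0.0523), *Ptgr2* (0.0716) and *Hadha* (0.0882). The median distance over all 10035 other tested genes was 0.436. The 5 were picked as the smallest distances, so their gap to that median was fixed by the choice and nothing is read from it. None of these 5 belongs to the iron lists. The distances were taken with 1 added, which shrinks the difference of a gene as low as *Slc40a1*. In scaled TPM, *Ptgr2* differed 1.70-fold and *Hadha* 1.66-fold, against 3.00-fold for *Slc40a1*, so the likeness holds on that scale and was not computed on another.

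The hearts expressed cardiac muscle markers at high levels, all 7 being above 0 in each heart and *Myh6*, the alpha myosin heavy chain, at 7466 TPM or more. Liver markers were nearly absent, with a summed level of at most 0.39 TPM over 5 genes and 2 of them at 0 throughout. *Ctcf* itself averaged 6.07 ± 0.0689 scaled TPM against 6.63 ± 1.24 in the heterozygotes (SD, n = 2), which does not check the point mutation. Macrophages recycle haem iron and are rich in ferroportin, so their markers were read beside *Slc40a1*. The 12 markers, none of them at 0 throughout, summed to 49.0 and 52.4 scaled TPM in wild type against 37.1 and 52.7. The sums overlapped after scaling, but as deposited they were 53.3 and 66.1 TPM against 30.3 and 47.6, lower in both heterozygous hearts. Of the 8 markers tested 0 were called by limma and 0 had an unadjusted p under 0.05, where 0.0199% and 12.2% of all tested genes did. *C1qc*, *Lyz2* and *Cd163* had both heterozygous values under both wild-type values, at log2 fold changes of -0.39, -0.38 and -0.23. In the higher direction 0 of the 8 were separate, where 23.3% of all tested genes were separate lower and 23.7% higher. The others overlapped by genotype, with *Cd68* at 0.23, *C1qb* at 0.05, *Mrc1* at -0.004, *Csf1r* at -0.02 and *C1qa* at -0.12. *Cx3cr1*, at 0.20 TPM or less, was separate and lower as well. The 6 endothelial markers summed to 75.1 and 76.9 against 68.4 and 73.1, and the 6 fibroblast markers to 41.9 and 60.7 against 33.7 and 40.5, both lower in the heterozygous hearts, and the part of macrophage, endothelial or fibroblast content in the *Slc40a1* difference was not tested. The 8 erythroid markers, read beside *Tfrc* because red cell precursors carry much of it, summed to 929.8 and 987.0 against 965.5 and 2121.

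**Figure D5:**
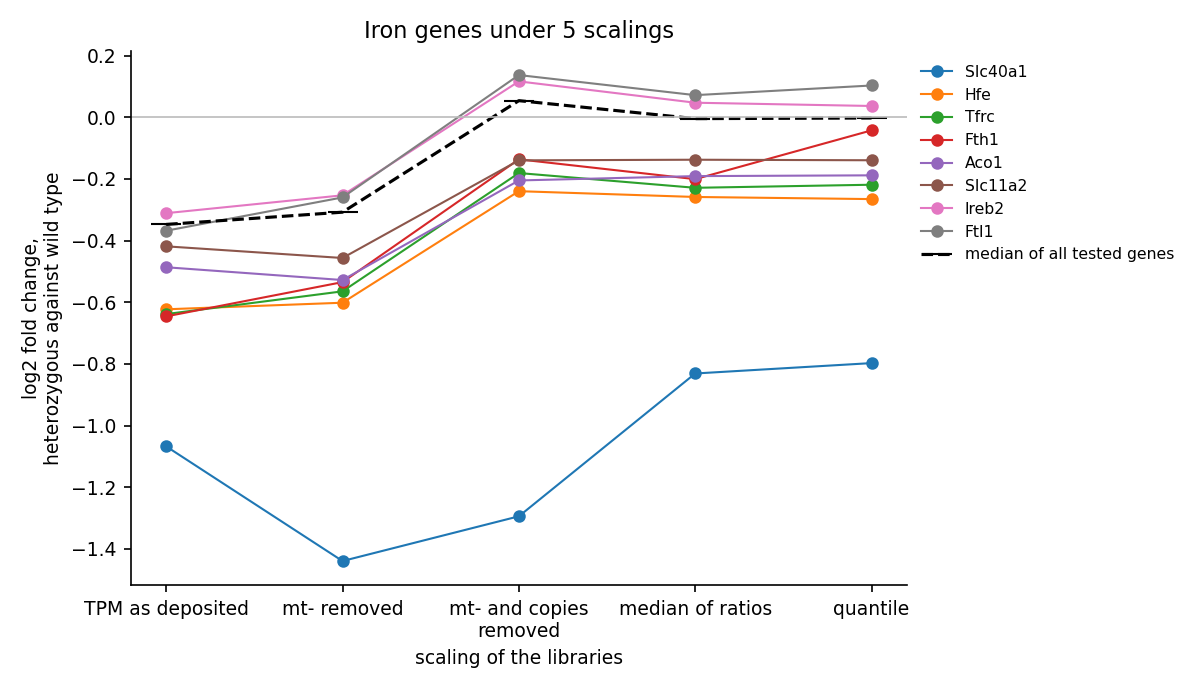
Log2 fold change, heterozygous against wild type, of the 8 tested iron genes under 5 scalings of the libraries, with the median of all tested genes as a dashed line. *Slc40a1* lies under all other members and under the median in each, whereas *Ftl1* and *Ireb2* change sign with the scaling.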

How the data were processed

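mRNA of 4 hearts, captured with beads in the study's library protocol for embryonic hearts, was measured. The authors trimmed reads with Trim Galore, aligned them to mm10 with STAR, quantified genes with RSEM and deposited TPM values rounded to 2 decimals; the annotation release is not given in the sources used here. The authors' DESeq2 test needs counts, which were not used here. TPM keep no depth, so no counting error is given. No column was left out.

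Groups and replicate numbers follow the sample titles. Scaling used median-of-ratios factors over tested genes above 0 in every library. A model of log2(scaled TPM + 1) on genotype was fitted in limma (3.58.1, R 4.3.3) to all genes averaging 1 TPM or more, with a trended prior of 4.64 degrees of freedom. Tests were two-sided and adjusted by Benjamini-Hochberg over those genes. The p-values and standard errors rest on a moderated spread, not on the spread between 2 mice per genotype alone. The mice gave 2 residual degrees of freedom, against 4.64 of the prior drawn from all fitted genes. Pseudogene copies were found with BLAST+ (2.17.0) at 95% identity over 80% of the copy. Coordinates are from GENCODE M21, to which 55141 of 55401 identifiers matched without version. *Trf* was matched through a RefSeq synonym.

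The 9 genes, role lists and marker lists were chosen with earlier results of these data known. Named are the 9 genes, the called genes and 2 largest rises and falls of each role list, the tested neighbours within 500 kb, the 5 nearest patterns and *Ctcf*. Outside that rule, *Heph*, *Bach1*, *Steap3*, *Mcoln1*, *Hamp2*, *Myh6* and the macrophage and atrial genes given were added after their values were seen. Alternatives changed the scaling, pseudocount, filter, prior, thresholds, replicate block and libraries.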

Additional observations from a re-analysis of the deposited data

How the results depend on the processing

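Of the iron genes that could be fitted, 0 were called under any alternative tried, and likewise 0 of the fitted further iron genes, markers and neighbours of *Slc40a1*. *Hmox1* was fitted only without a filter, and of the 9 genes 3 were fitted at a mean TPM of 5 or more, *Slc40a1* not among them. *Slc40a1* kept a log2 fold change below 0 in the 16 alternatives that included it, from -1.45 (0.1 added) to -0.29 (5 added). These values describe and do not test it. Among them, the replicate block, the robust prior, the prior without trend and the changed thresholds cannot move a fold change and repeated the main value of -0.83. Leaving out each library in turn gave -0.90 to -0.78. *Ftl1* and *Ireb2* turned lower with TPM as deposited (-0.37 and -0.31) and with mt- genes removed (-0.26 and -0.25), scalings in which the median of all genes was -0.35 and -0.31, and ran from -0.11 to 0.26 and from -0.12 to 0.22 with a library left out. The log2 difference of summed ferritin was -0.16, was -0.61 and -0.50 under those scalings, and ran from -0.35 (without heterozygous replicate 2) to 0.02 (without heterozygous replicate 1). The 2 calls over all genes became 13 with TPM as deposited, 14 with mt- genes removed, 6 with their nuclear copies removed as well (a setting chosen with the values in view), 0 without a filter, 4 with 0.1 added, 5 with a robust prior and between 10 and 25 with 1 library left out; the cause was not tested. Same-numbered libraries come from different mice, and the labels do not say whether these share a litter, day or batch. Their deviations correlated at 0.101, which cannot settle that. A replicate block gave 10 calls over all genes and no called iron gene. Depth is unknown, which limits *Slc40a1* and *Hmox1* most.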

Other observations

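In scaled TPM, *Hamp* stood at 0.882 and 20.1 in the wild-type hearts and at 9.43 and 45.5 in the heterozygous hearts. *Nppa*, which encodes atrial natriuretic peptide, stood at 392.5 and 1204 against 1012 and 1739. *Myl7*, the atrial myosin light chain, stood at 299.6 and 808.9 against 634.1 and 1036, and *Myl4* at 103.5 and 295.1 against 244.1 and 453.2. *Sln*, which encodes sarcolipin, stood at 10.8 and 46.1 against 27.8 and 52.8. After scaling, all 5 genes ordered the 4 hearts in the same way, with the first wild-type heart lowest and the second heterozygous heart highest. These atrial genes were chosen after the values of *Hamp* were seen. The share of all tested genes with this order was not computed, so nothing is read from the likeness. As deposited, the second wild-type heart was instead the highest for *Myl7* (1019 against 936.0 TPM in the second heterozygous heart) and *Sln* (58.0 against 47.7), unlike *Hamp* (25.3 against 41.1). *Hamp2*, a close relative of *Hamp* in the mouse, was listed at 0 and 0.63 TPM in wild-type and 0.26 and 1.25 in heterozygous hearts. How reads were divided between the pair was not examined. *Slc40a1* did not follow that order, with 1.87 and 1.95 against 0.685 and 0.587. The share of atrial tissue in each sample is not given in the sources used here, and its part in the *Hamp* values was not tested.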
